A study of Mus musculus with 6 samples.

Results

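The insulin genes Ins1 and Ins2 and the islet amyloid peptide gene Iapp were taken by symbol from the deposited table of normalized counts, and all 3 were found among its 18437 genes. Islets are the endocrine clusters of the pancreas, and these came from male mice aged 30 weeks. The 3 wild type libraries were from Sec16b+/+ mice and the 3 knockout libraries from Sec16b-/- mice. The labels name no Cre, transgene or treatment, and whether a library holds 1 animal or a pool is not stated. P-values therefore measure the spread between these libraries, which may be technical. Sec16b acts in the endoplasmic reticulum (ER), at the sites where new secretory proteins such as proinsulin are loaded into COPII vesicles. The comparison asked which islet transcripts differ when it is missing. Values for the 3 libraries of a genotype are given below in the order of their replicate numbers.

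Insulin lowers blood glucose and is made by beta cells. It is translated as preproinsulin, enters the ER, folds there as proinsulin, and is cut in secretory granules into insulin and C-peptide. Rodents carry a pair of insulin genes: Ins2 is the ancestral gene, and Ins1 arose from a retroposed copy of it and lacks an intron that Ins2 has. Iapp encodes the precursor of amylin, a peptide of the calcitonin family that is stored in the same granules and released with insulin. Human amylin forms amyloid in islets, whereas the mouse peptide does not.

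The coding sequences of Ins1 and Ins2 are shown because reads from copies this alike can be assigned to either gene. They come from GENCODE M21 transcripts and run 5′ to 3′ from base 37 (codon 13) to the stop codon, 291 bases of Ins1 and 297 of Ins2. Capitals mark each base that differs between them or is aligned to a gap.
Ins1: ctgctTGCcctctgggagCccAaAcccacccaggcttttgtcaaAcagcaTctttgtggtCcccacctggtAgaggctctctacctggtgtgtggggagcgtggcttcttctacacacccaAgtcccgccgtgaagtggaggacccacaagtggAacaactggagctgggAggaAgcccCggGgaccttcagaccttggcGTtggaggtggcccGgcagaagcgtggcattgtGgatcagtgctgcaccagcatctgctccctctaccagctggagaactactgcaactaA
Ins2: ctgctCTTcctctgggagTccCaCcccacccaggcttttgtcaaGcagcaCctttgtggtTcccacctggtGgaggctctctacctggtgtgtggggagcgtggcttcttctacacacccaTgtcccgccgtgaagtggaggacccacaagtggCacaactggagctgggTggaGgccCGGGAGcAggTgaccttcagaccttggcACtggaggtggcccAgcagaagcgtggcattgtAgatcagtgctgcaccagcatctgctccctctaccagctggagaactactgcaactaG
The whole Ins1 coding sequence has 327 bases (108 codons before the stop) and that of Ins2 has 333 bases (110 codons), the form carried by 5 of 8 complete coding transcripts of Ins2. In the alignment of the whole sequences 302 bases were identical, 25 were mismatched and 6 were gapped, so 92.4% of the aligned bases were the same. The longest identical stretch has 56 bases and lies at the 3′ end, at positions 271 to 326 of Ins1 and 277 to 332 of Ins2.
Shared stretch: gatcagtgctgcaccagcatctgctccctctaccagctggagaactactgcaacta
Of the windows of 50 bases in the Ins1 coding sequence, 7 of 278 (2.52%) also occurred in an Ins2 transcript, and of those of 75 bases 0 of 253. At 30 bases the count was 50 of 298 windows (16.8%). The Iapp coding sequence has 282 bases (93 codons) and shared 0 of 253 windows of 30 bases with either insulin gene. Read length and the handling of reads with more than 1 match are unknown (not given in the sources used here), so how many reads Ins1 and Ins2 share was not tested.

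The 250 bases upstream of the annotated start are shown for Ins1 and Iapp, whose promoters are classic targets of beta cell factors that bind E-box and TAAT motifs. Whether islets start transcription at these positions was not tested, so the windows may not cover the same part of each promoter. Both are on the plus strand of build GRCm38.p6 in RefSeq, at chr19:52264047-52264296 for Ins1 and chr6:142298175-142298424 for Iapp. Capitals mark CATCTG, the core of an E-box of the kind bound by Neurod1, and TAAT, the core bound by homeodomain factors such as Pdx1. Both motifs were searched on both strands, and matches may overlap.
Ins1 upstream: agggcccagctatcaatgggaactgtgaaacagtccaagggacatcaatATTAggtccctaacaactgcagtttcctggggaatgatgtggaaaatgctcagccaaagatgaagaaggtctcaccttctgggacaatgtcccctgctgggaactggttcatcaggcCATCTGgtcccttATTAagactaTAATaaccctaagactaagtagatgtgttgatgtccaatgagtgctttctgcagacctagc
Iapp upstream: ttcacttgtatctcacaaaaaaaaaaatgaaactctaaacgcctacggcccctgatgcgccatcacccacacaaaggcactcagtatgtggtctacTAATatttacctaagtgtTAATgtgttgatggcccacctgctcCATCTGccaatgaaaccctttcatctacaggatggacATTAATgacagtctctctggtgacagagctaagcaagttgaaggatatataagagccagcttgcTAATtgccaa
Each window held 1 CATCTG, starting at −84 in Ins1 and at −111 in Iapp relative to the annotated start. TAAT matched at 3 places in Ins1 and at 5 in Iapp. Among 27025 upstream windows of the same length, 14.5% held CATCTG and 55.3% held TAAT, so both are common and a match is a description only.

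Libraries held 22071895 to 26806787 reads. Each value is a read count divided by a size factor per library, and 1 read is worth 0.879 to 1.23 units of value. Sec16b, the targeted gene, read 1655, 773 and 1786 for wild type and 553, 433 and 750 for the knockout, so every knockout library was lower but none lacked it. Of the markers of islet cells, all 15 beta cell genes were detected in every library, the lowest value being 668 for the cation channel gene Trpm5. The acinar list, 42 genes of the enzyme-secreting exocrine pancreas, took very different shares of the reads: 6.40%, 1.45% and 3.95% for wild type and 19.5%, 9.33% and 0.873% for the knockout. Knockout replicate 1 thus had the highest exocrine share and knockout replicate 3 the lowest. The 7 lymphocyte genes in the table took from 0.001% in wild type replicate 2 to 0.536% in knockout replicate 1.

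Insulin transcript levels overlapped between the genotypes for both genes. Ins2 was the gene with the most reads in all 6 libraries. Wild type islets had Ins2 values of 1737105, 1790839 and 2384366, and knockout islets had 1689729, 1581331 and 2192704. The first 2 knockout libraries were lower than any wild type library, while knockout replicate 3 exceeded wild type replicates 1 and 2. Ins2 averaged 1970770 ± 359191 (SD, n = 3) for wild type and 1821255 ± 326218 (SD, n = 3) for the knockout. In bulk islets, fewer beta cells and less insulin RNA per beta cell cannot be told apart.

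Ins1 followed the same order with 1 exception. Its values were 516103, 571712 and 757702 for wild type and 551065, 468979 and 668260 for the knockout. Knockout replicate 1 lay between wild type replicates 1 and 2, so that only knockout replicate 2 was below all wild type libraries. Ins1 averaged 615172 ± 126527 (SD, n = 3) for wild type and 562768 ± 100155 (SD, n = 3) for the knockout. By reads, Ins1 had rank 2 in the wild type libraries and in knockout replicate 3, and rank 3 in the other knockout libraries, where the chymotrypsinogen gene Ctrb1 (683197) and the glucagon gene Gcg (635081) respectively stood above it.

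Iapp had a narrower range than the insulin genes. Its values were 246811, 312007 and 307300 for wild type and 236385, 258930 and 288344 for the knockout. Knockout replicate 1 was the lowest of the 6 libraries, and the other knockout libraries lay between wild type replicate 1 and wild type replicates 2 and 3. Iapp averaged 288706 ± 36358 (SD, n = 3) for wild type and 261220 ± 26055 (SD, n = 3) for the knockout. Groups that do not overlap were found in 9.08% of all genes tested and in 0 of these 3. From the lowest to the highest library Iapp varied 1.32-fold, Ins2 1.51-fold and Ins1 1.62-fold. Its rank by reads was 3 to 5 in 5 libraries and 12 in knockout replicate 1.

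**Figure D1:**
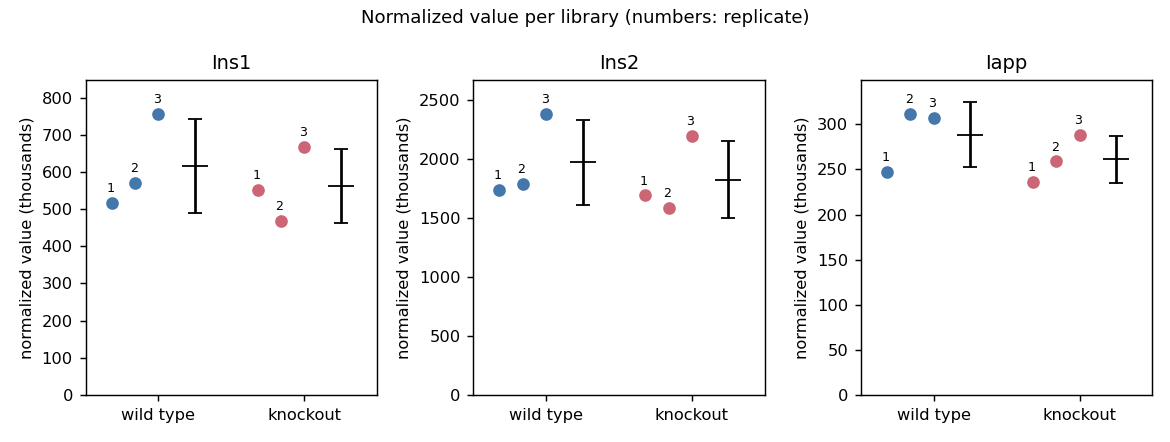
Normalized value divided by 1000 (vertical axis, from 0) of Ins1, Ins2 and Iapp in the 3 wild type (blue) and 3 knockout (red) libraries, with replicate numbers above the points. Black bars give the mean and SD of 3 libraries, and the ranges of the genotypes overlap for each gene.

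For none of the 3 genes did the difference between genotypes exceed the spread between libraries. The log2 fold change, knockout minus wild type on the log2(value + 1) scale, came to −0.12 (Ins1), −0.11 (Ins2) and −0.14 (Iapp), which put the knockout level at 91.8%, 92.4% and 90.7% of wild type. In limma with a mean-variance trend over 16042 genes the adjusted p-values were 0.994, 0.999 and 0.993 in the same order. Over all genes that fit called 0 (0.0%), and 494 had an unadjusted p under 0.05. Sec16b, the targeted gene, was not called either (log2 fold change −1.22, SE 0.35, limma adjusted p = 0.993). Not passing this test therefore does not show that a gene is unchanged. With the trend the SE of Ins2 was 1.74, where the spread of its own 6 values gave 0.20. Limma without the trend gave SEs of 0.21 for Ins1, 0.19 for Ins2 and 0.15 for Iapp, and adjusted p = 0.995 for each.

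The intervals of that second fit bound the difference. The 95% interval ran from 0.642-fold to 1.31-fold of wild type for Ins1, from 0.662-fold to 1.29-fold for Ins2 and from 0.704-fold to 1.17-fold for Iapp. Each interval holds both lower and higher knockout levels, so these data do not show that the genotypes express the genes alike. Two-sided exact permutation tests of the log2 values gave p = 0.6 for Ins1, 0.5 for Ins2 and 0.3 for Iapp, where 0.1 is the smallest p that 3 libraries against 3 allow. The quasi-likelihood test of edgeR on recovered reads gave log2 fold changes of −0.13, −0.11 and −0.14, and the Wald test of DESeq2 gave −0.13, −0.11 and −0.14, in the order Ins1, Ins2 and Iapp. EdgeR called 0 genes (507 had an unadjusted p under 0.05). DESeq2 called 12 of 18389 genes with a p-value (0.0653%), none of them among these 3. In DESeq2, 7882 genes had no adjusted p and could not be called.

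The negative sign of the insulin changes rested on wild type replicate 3, the library with the most insulin reads. Without it the log2 fold change was 0.04 for Ins1 and 0.03 for Ins2. Without knockout replicate 2 it was −0.0002 for Ins1 and −0.02 for Ins2, and without knockout replicate 3 it was −0.26 for Ins1 and −0.25 for Ins2. For Iapp the change ran from −0.25 without wild type replicate 1 to −0.07 without knockout replicate 1. With the acinar level as a covariate the changes were −0.07 for Ins1, −0.06 for Ins2 and −0.09 for Iapp.

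**Figure D2:**
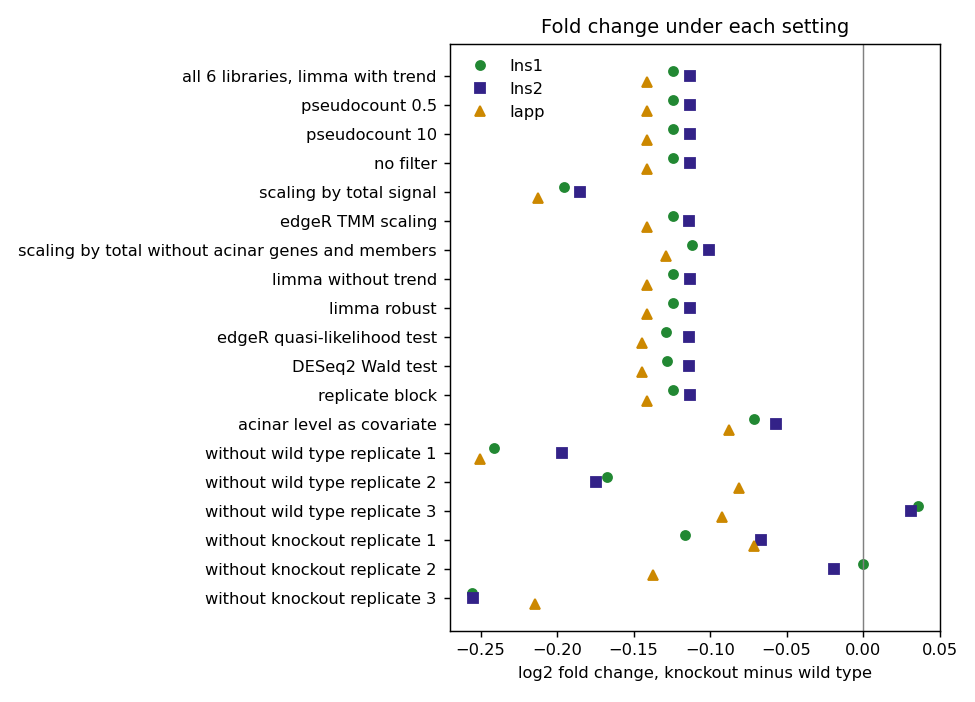
Log2 fold change of knockout minus wild type (horizontal axis) for Ins1 (circles), Ins2 (squares) and Iapp (triangles) under each setting (vertical axis). Points lie between −0.26 and 0.04, and those right of 0 are Ins1 and Ins2 without wild type replicate 3.

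As shares of all reads, the 3 genes together took 11.1%, 11.9% and 14.6% for wild type and 9.14%, 9.91% and 14.3% for the knockout. Exact 95% Clopper-Pearson intervals, which cover counting error only, were narrow: 9.13% to 9.15% in knockout replicate 1, for example. The share was below every wild type library in knockout replicates 1 and 2 and close to the highest in knockout replicate 3. It averaged 12.5 ± 1.87% (SD, n = 3) for wild type and 11.1 ± 2.79% (SD, n = 3) for the knockout.

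Ins2 made up most of this. Its share was 7.68%, 7.97% and 10.1% for wild type against 6.24%, 6.78% and 9.97% for the knockout. The Ins1 share was 2.28%, 2.55% and 3.21% for wild type against 2.03%, 2.01% and 3.04% for the knockout. For Iapp the shares were 1.09%, 1.39% and 1.30% against 0.872%, 1.11% and 1.31%, and the ranges of the genotypes overlapped for all 3 genes. The two-sided exact permutation test gave p = 0.5 for each of the 5 shares tested (each gene, the insulin sum and the sum of all 3), and p = 0.7 after Benjamini-Hochberg adjustment over 7 shares and ratios.

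The exocrine share moved with these shares in part. Both are parts of the same total, so a high acinar share by itself lowers the share of every other gene. The pair of knockout libraries with the lowest insulin shares had the highest acinar shares, 19.5% and 9.33%, and knockout replicate 3 had 0.873%. Wild type replicate 2, with 1.45% acinar reads, had less insulin than wild type replicate 3 with 3.95%. With the acinar genes left out of the total, the 3 genes took 11.8%, 12.1% and 15.2% for wild type and 11.4%, 10.9% and 14.4% for the knockout. These averaged 13.0 ± 1.90% (SD, n = 3) and 12.2 ± 1.92% (SD, n = 3), and the first 2 knockout libraries were again lower than any wild type library.

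**Figure D3:**
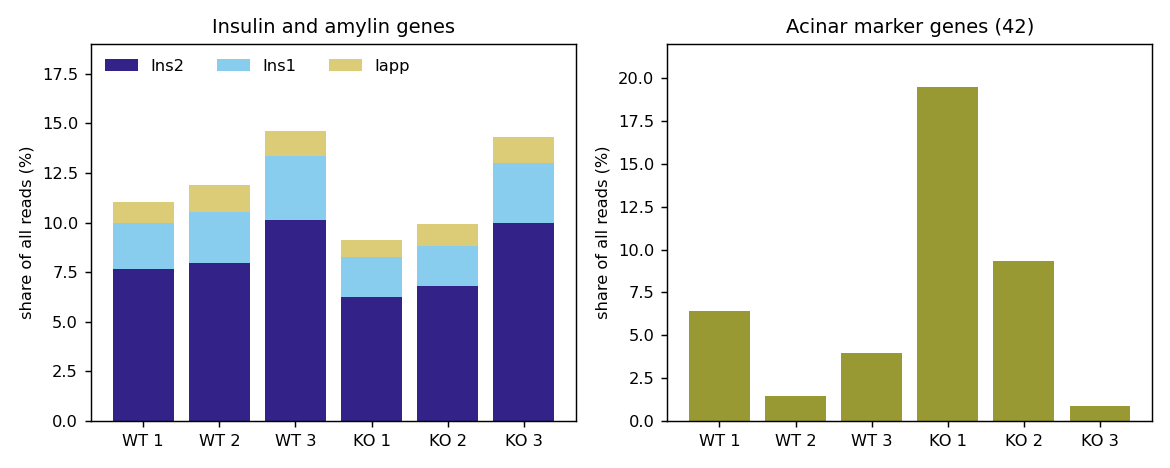
Left, share of all reads in percent taken by Ins2, Ins1 and Iapp, stacked, in the wild type (WT) and knockout (KO) libraries. Right, the share taken by 42 acinar genes in the same libraries, highest (19.5%) where the stacked share is lowest (9.14%). Both are parts of the same total of reads.

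The balance of the insulin genes varied less between libraries than either gene did. The ratio of Ins1 to Ins2 values was 0.297, 0.319 and 0.318 for wild type and 0.326, 0.297 and 0.305 for the knockout. Knockout libraries held both the highest and the lowest ratio. From lowest to highest the ratio varied 1.10-fold, where Ins1 itself varied 1.62-fold and Ins2 1.51-fold. Ins1 gave 23.7 ± 0.724% (SD, n = 3) of insulin reads for wild type and 23.6 ± 0.886% (SD, n = 3) for the knockout. On the log2 scale the ratio differed by −0.01 between genotypes (two-sided exact permutation p = 0.9, adjusted p = 0.9), and its sign depended on which library was included. A ratio within a library depends neither on depth nor on exocrine RNA, but reads that the counting assigned to the wrong copy would move it. Divided by coding length, the ratio ran from 0.302 to 0.332, so Ins2 was the more abundant transcript per base in every library.

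Amylin transcript relative to insulin transcript varied more between libraries than the insulin ratio, and its difference between genotypes was within that spread. For every 100 insulin reads there were 10.95, 13.2 and 9.78 Iapp reads for wild type and 10.5, 12.6 and 10.1 for the knockout. Replicate 2 was the highest and replicate 3 the lowest in both genotypes, and the ranges overlapped. These averaged 11.3 ± 1.74 (SD, n = 3) and 11.1 ± 1.36 (SD, n = 3). The log2 ratio differed by −0.03 (two-sided exact permutation p = 0.8, adjusted p = 0.9).

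Ins1 and Ins2 varied together across the 6 libraries. Pearson's r of their log2 values was 0.975 (exact permutation p = 0.0042, adjusted p = 0.025 over 6 relations) and Spearman's rho was 0.943 (exact permutation p = 0.0167, adjusted p = 0.1). Leaving out wild type replicate 3 and knockout replicate 2, the libraries farthest from the median of Ins1, gave r = 0.933, and within genotypes r was 0.973. The genes share each library's size factor, and possibly reads, so they are not independent measures. Iapp tracked them more loosely, with r = 0.662 against Ins1 (exact permutation p = 0.163, adjusted p = 0.267) and r = 0.663 against Ins2 (exact permutation p = 0.183, adjusted p = 0.267). Spearman's rho was 0.6 and 0.657 (adjusted p = 0.242 and 0.21, exact permutation). Without the 2 farthest libraries r was 0.569 and 0.477. Within genotypes it was 0.629 and 0.631.

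The acinar share and the 3 genes were inversely related, and none of the relations passed the adjustment. Pearson's r between the log2 acinar share and the log2 value was −0.512, −0.575 and −0.794 in the order Ins1, Ins2 and Iapp (adjusted exact permutation p = 0.294, 0.267 and 0.225). Spearman's rho was −0.66, −0.77 and −0.77 (adjusted exact permutation p = 0.21, 0.206 and 0.206). Without knockout replicates 1 and 3, the libraries with the most and the least acinar reads, r was −0.44, −0.31 and −0.82. Within genotypes it was −0.48, −0.55 and −0.80.

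The genes most like each member were picked by Pearson's r over the 6 libraries among 4800 genes with a mean value of at least 1000. For Ins1 these were Srp68 (0.982), a subunit of the signal recognition particle that brings nascent secretory proteins to the ER, then Ins2 (0.975), Man2a2 (0.974), Emilin1 (0.972) and Asxl2 (0.969). For Ins2 they were Tspan3 (0.985), Rgp1 (0.984), H2-Q2 (0.979), the potassium channel gene Kcnk16 (0.978) and Gnptg (0.976), with Ins1 next at 0.975. For Iapp they were Prrc2b (0.995), Sos1 (0.990), Marchf8 (0.988), the secretase gene Bace1 (0.988) and Ndst1 (0.983), while Ins1 stood at position 1076 in the same order for Iapp. These lists rank r over 6 points, share each library's size factor, and are descriptions only.

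The other islet hormones set the insulin genes against alpha, delta and PP cells. Gcg, the glucagon gene of alpha cells, read 196522, 344316 and 157662 for wild type and 306202, 635081 and 223263 for the knockout. The ratio of insulin reads to Gcg reads, not corrected for length, was 11.5, 6.86 and 19.9 for wild type and 7.32, 3.23 and 12.8 for the knockout. Knockout replicate 2 had the least insulin relative to glucagon and wild type replicate 3 the most. Insulin made up 81.9 ± 4.49% (SD, n = 3) of the reads of 8 islet hormone genes for wild type and 77.0 ± 8.0% (SD, n = 3) for the knockout, with overlapping ranges. Iapp made up 9.21 ± 0.899% and 8.47 ± 0.126% (SD, n = 3 each).

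Among the 5 hormone genes other than these 3, 4 were higher and 1 lower in the knockout, and 0 passed limma's test. The median log2 fold change was 0.44, against −0.003 over all genes tested. Pyy, a peptide of PP and other endocrine cells, had 0.61 (SE 0.20) and Ppy, the pancreatic polypeptide gene, had 0.44 (SE 0.18), each with all 3 knockout values above all wild type values. Such separation upwards was seen in 3.85% of genes tested, and separation in either direction in 9.08%. Gcg had 0.67 (SE 0.62) and Sst, the somatostatin gene of delta cells, 0.20 (SE 0.20). Limma's adjusted p was 0.993 for each of the 4.

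**Figure D4:**
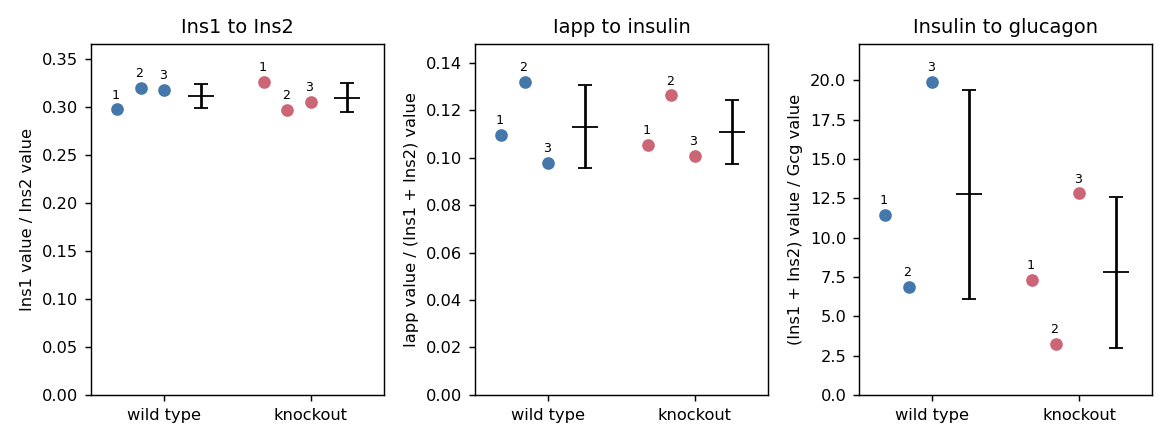
Ratios of values per library (vertical axes, from 0) for Ins1 to Ins2, Iapp to the insulin sum, and the insulin sum to Gcg, in wild type (blue) and knockout (red) libraries with replicate numbers, mean and SD of 3. The Ins1 to Ins2 ratio stays between 0.297 and 0.326, while insulin to glucagon runs from 3.23 to 19.9.

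Transcription factors that act on the insulin promoter had 10 of 18 genes lower and 8 higher, with a median log2 fold change of −0.06, and 0 passed limma's test. The smallest p belonged to Foxa2, a forkhead factor upstream of Pdx1, which read 2157, 2369 and 2371 for wild type and 1135, 1710 and 2108 for the knockout (−0.52, SE 0.22). Insm1, a zinc finger factor of endocrine cells, had −0.35 (SE 0.16). Groups did not overlap in 3 of the 18 genes, each with the knockout lower, against 9.08% of all genes tested (5.22% with the knockout lower). These were Foxa2, Insm1 and Creb1 (−0.13, SE 0.09), a cAMP-responsive factor named after its values were seen. Nkx6-1 (−0.52, SE 0.25) and Nkx2-2 (−0.42, SE 0.20), homeodomain factors of beta cells, overlapped. In Foxa2, Insm1, Nkx6-1 and Nkx2-2 knockout replicate 1, the library with the highest acinar share, was the lowest of the 6. Its Ins2 value was not, as knockout replicate 2 lay below it. Limma's adjusted p was 0.993 for each of the 4.

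Genes that process proinsulin and build the granule were evenly divided, with 12 of 24 lower, 12 higher, a median of −0.005 and 0 passing limma's test. Pdia3, an ER disulfide isomerase, read 32122, 34045 and 35449 for wild type and 27761, 24198 and 26354 for the knockout (−0.38, SE 0.14). Dnajc3, an ER cochaperone, had −0.32 (SE 0.12). These were the 2 of 24 genes whose groups did not overlap, against 9.08% of all genes tested, a share near that background. Vgf, a granule peptide precursor, had −0.53 (SE 0.28) and the zinc transporter gene Slc30a5 −0.17 (SE 0.11). Limma's adjusted p was 0.993 for each.

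Genes for insulin mRNA stability, translation and ER entry had 12 of 20 lower and 8 higher, a median of −0.07 and 0 passing. Ssr1 and Ssr2, subunits of the translocon-associated TRAP complex, had −0.22 (SE 0.11) and −0.18 (SE 0.10). Groups did not overlap in 2 of the 20 genes, Ssr1 and Ssr2, both with the knockout lower. Over all genes tested 9.08% did not overlap, so the share is near that background. Sec61g, a subunit of the translocon itself, had 0.23 (SE 0.13), and Tial1, an RNA-binding protein, 0.17 (SE 0.10).

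Relatives of the 3 genes were present at far lower read counts. Of the insulin, IGF and relaxin family, Igf2, a fetal growth factor, averaged 246 ± 35.8 (SD, n = 3) for wild type and 234 ± 26.7 (SD, n = 3) for the knockout (−0.07, SE 0.18). Igf1 (0.50, SE 0.90), Insl3 (0.96, SE 0.61) and Insl6 (0.42, SE 0.68) were lower still, and 0 of the 4 tested genes passed. In the calcitonin family and its receptor genes, all 7 tested genes other than Iapp were on the higher side, with a median of 0.21, and 0 passed. Ramp1, which pairs with the calcitonin receptor to form an amylin receptor, read 158, 221 and 171 for wild type and 254, 265 and 232 for the knockout (0.46, SE 0.18). The calcitonin receptor gene Calcr was not among the genes of the deposited table, so its level is not known here. Ramp3 had 0.51 (SE 0.30), Calcrl, the receptor of CGRP and adrenomedullin, 0.53 (SE 0.34), and Ramp2 0.21 (SE 0.23). Calcrl, Ramp2 and Ramp3 are also expressed by endothelial cells, whose 9 marker genes had 8 on the higher side and a mean log2 level of 9.07 to 9.32 for wild type and 9.44 to 9.70 for the knockout. Groups did not overlap in 1 of these 9, with the knockout higher, against 9.08% of all genes tested (3.85% with the knockout higher). Their share of reads overlapped between genotypes, at 0.039%, 0.047% and 0.037% for wild type and 0.042%, 0.045% and 0.047% for the knockout. The part of endothelial cells in these values was not tested.

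Genes that degrade insulin or amylin had 3 of 4 lower, a median of −0.08 and 0 passing. Ide, the insulin-degrading enzyme, had −0.12 (SE 0.16), Bace2, a protease that cleaves amylin, −0.17 (SE 0.20), the lysosomal protease gene Ctsd −0.04 (SE 0.10), and Ece1 0.06 (SE 0.28). Each of these values lay within 1 SE of 0.

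The neighbouring genes were read at levels far below the insulin genes. In RefSeq order, the nearest genes in the table were Igf2os and Th beside Ins2, Sorcs1 and Xpnpep1 beside Ins1, and Slco1a5 and Pyroxd1 beside Iapp. Th, the tyrosine hydroxylase gene, read 415, 669 and 421 for wild type and 601, 1009 and 987 for the knockout (log2 fold change 0.78, SE 0.27, limma adjusted p = 0.993), opposite in sign to Ins2. Xpnpep1 had −0.14 (SE 0.13) and Pyroxd1 0.07 (SE 0.13). Sorcs1 had −0.14 (SE 0.41) and Slco1a5 −0.26 (SE 0.34), and Igf2os was below the filter on low values.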

How the data were processed

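Frozen mouse islets were profiled by RNA sequencing in 6 libraries, 3 per genotype by the sample labels. The submitters' processing notes list HISAT2, a read aligner. Its version, counting tool, build and strandedness were unknown (not given in the sources used here). The signal deposited by the authors is a read count per gene over 1 size factor per library, as the values show: 100% were whole reads within 0.01 reads. Every listed gene had at least 1 read in each library.

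The 16042 genes that reached 10 in at least 3 libraries were tested as log2(value + 1) with limma 3.58.1 in R 4.3.3, Benjamini-Hochberg adjusted at 0.05, two-sided, after a check on simulated counts. EdgeR 4.0.16 and DESeq2 1.42.0 on recovered reads were alternatives. Shares and ratios were compared by exact permutation (scipy 1.17.1). No library duplicated another of its genotype (chi-square per degree of freedom 57.0 or more).

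Members and lists were chosen with earlier results of these data known. Named genes were the 3 members, the 4 smallest p of each list, 4 hormone genes, the 5 genes most like each member and the nearest neighbours. Ctrb1, Creb1, Trpm5, G6pc2, Slc2a2 and Mafa were named after their values were seen. Sequences came from GENCODE M21 and RefSeq (GRCm38.p6), whose promoter table matched 2 of the 3 members.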

Additional observations from a re-analysis of the deposited data

How the results depend on the processing

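Of 145 alternative values over 11 results, 131 kept their direction and side of the threshold and 13 changed sign. Some could not change sign: the filter and limma's variance options (trend, robust) do not enter a fold change and move only its p-value. Changing the pseudocount left the fold changes at −0.12 for Ins1, −0.11 for Ins2 and −0.14 for Iapp, whose values are far above it. For shares and ratios only the direction could change, since the smallest exact p that 3 libraries against 3 allow is 0.1, above 0.05. The log2 fold change of Iapp was negative in all alternatives run, from −0.21 with scaling by total signal to −0.09 with the acinar covariate, and from −0.25 to −0.07 with single libraries left out. For Ins1 and Ins2 it ran from −0.256 to 0.0359 and from −0.255 to 0.0316 with single libraries left out, turning positive without wild type replicate 3; their own levels in that library are the highest of the 6. DESeq2 called 12 genes where the other fits called 0; the cause was not tested. Leaving out libraries moved the share difference, in percentage points, from −0.66 to −0.05 for Ins1, −2.08 to −0.16 for Ins2, −0.27 to −0.05 for Iapp, −2.74 to −0.22 for the insulin sum and −3.01 to −0.36 for all 3. The log2 Ins1 to Ins2 ratio ran from −0.0498 to 0.0187 and the log2 Iapp to insulin ratio from −0.125 to 0.092. Relative to the summed value of 15 beta cell markers, a denominator chosen after seeing the data and led by G6pc2 (27.4% of it), knockout minus wild type was 0.14 for Ins1, 0.51 for Ins2, 0.0368 for Iapp, 0.66 for the insulin sum and 0.69 for all 3 (exact permutation p from 0.6 to 1.0). Scaling by total signal moved the median of all genes to −0.07, and Iapp then had −0.21. Whether replicate numbers pair the libraries was not settled. Same-numbered libraries deviated together with correlations of 0.43, 0.004 and 0.365, and differently numbered ones with −0.413 to 0.199. A replicate block cannot move the fold changes or the share and ratio differences, because each number occurs in both genotypes. With it the fold changes of Ins1, Ins2 and Iapp were thus again −0.12, −0.11 and −0.14. The share differences again ran from −1.41 percentage points for all 3 genes to −0.16 for Iapp. The log2 ratios again differed by −0.03 (Iapp to insulin) and −0.01 (Ins1 to Ins2). Only SEs and p-values could change: limma with the block called 0 genes, and 864 had an unadjusted p under 0.05, against 494 without it. The ratio per protein length could not be run for want of proteins, and coding length replaced it.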

Other observations

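Set against other beta cell genes, Ins1, Ins2 and Iapp gave another order of libraries. By replicate number, their summed value was 15.4, 16.7 and 17.8 times that of 15 beta cell markers for wild type and 19.8, 15.9 and 16.2 times for the knockout. Knockout replicate 1, which had the lowest summed share of reads for the 3 genes (9.14%), had the highest multiple. Its G6pc2 (27321) and Slc2a2 (3357) were the lowest of the 6 libraries. Knockout replicate 3 had the highest Mafa value (13597 against 4593 to 7565 in the other libraries), with insulin levels inside the wild type range. This denominator was chosen after seeing the data, and the ranges of the genotypes overlapped.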
